A study of Populus x canadensis with 3 samples.

Results

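miR390 and miR393 are conserved plant microRNAs (miRNAs) of auxin signalling, the hormone pathway that shapes root growth and branching. Their members were taken by name from a table of root miRNAs, as each distinct sequence with a name of miR390 or miR393. The rule found 14 of the 472 distinct sequences, 7 for each family, listed under 24 of the 673 entries. The roots were of the hybrid poplar Populus × euramericana "Neva", grown from rooted branch cuttings in water culture for 60 days and then kept for 3 days with para-hydroxybenzoic acid (pHBA). The acid is a phenolic compound that plants release into soil. PHBA 0 is the library of roots without acid, and PHBA 2 and PHBA 4 are those labelled 2 and 4 mML-1, presumably millimolar. RNA of a treatment was mixed in equal parts, so each dose is 1 library of pooled RNA. There is no replicate, no test was possible, and the intervals in brackets are 95% intervals that cover counting error only. The table holds miRNAs alone, so the root label was not checked against marker genes. In such bulk RNA, fewer cells of a type and less RNA per cell cannot be told apart.

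An miRNA is cut from a hairpin as a duplex of a 5p and a 3p strand, one of which usually accumulates. In Arabidopsis, miR390 is carried by the Argonaute protein AGO7 and cuts TAS3 transcripts, which start the trans-acting siRNAs (tasiRNAs) that repress the auxin response factors ARF2, ARF3 and ARF4. This circuit is known there for its role in lateral root growth. miR393 represses the F-box auxin receptors TIR1 and AFB2, so it acts at the point where auxin is sensed, and in Arabidopsis it responds to nitrate and to bacterial signals. The 3p strand of Arabidopsis MIR393b has been reported to act with AGO2 on the gene MEMB12. None of these target genes was measured in the table.

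The sequences of the more abundant members are shown, with a rare variant, gma-miR390a-5p_L+1. Single sequences differ in first base, in length and in how the strands face each other. Capitals mark the seed, bases 2 to 8, and letters are those of the table, with T for U.
ptc-miR390a (5p): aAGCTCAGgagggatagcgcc
ptc-MIR390a-p3 (3p): cGCTATCTatcctgagttct
ptc-MIR390b-p3 (3p): cGCTATCCatcctgagtttca
ptc-miR393a-5p (5p): tCCAAAGGgatcgcattgatc
ptc-miR393a-5p_R+1 (5p): tCCAAAGGgatcgcattgatct
ptc-MIR393a-p3 (3p): cTATCCCTttggattcctcc
ptc-MIR393c-p3 (3p): aTCATGCGatcccttaggaat
gma-miR390a-5p_L+1 (5p): aAAGCTCAggagggatagcgcc
The prefix ptc stands for Populus trichocarpa, and a capital MIR with p3 marks a hairpin strand that was not registered as a mature miRNA. R+1 and L+1 mark 1 base more at the 3′ and the 5′ end. ptc-miR390a begins with A and has 21 nt, and ptc-miR393a-5p begins with T and comes as a 21 nt and a 22 nt form with the same seed. The L+1 form has all 21 bases of ptc-miR390a, but the extra base moves the seed by 1 position, so that seed was seen in no other sequence of the table. The 14 members hold 11 seeds in all, and no sequence of another family shares any of them.

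The 3p strands were set against their 5p partners by the ungapped antiparallel pairing with most paired bases, G:T included. ptc-MIR390a-p3, the more abundant 3p strand, pairs with ptc-miR390a at 15 Watson-Crick and 2 G:T positions of 19 facing bases, with 3′ overhangs of 1 nt on the 3p strand and 2 nt on the 5p strand. ptc-MIR390b-p3 pairs with it at 17 Watson-Crick and 1 G:T position of 19, with 3′ overhangs of 2 nt on both strands, the form that Dicer-like enzymes are known to leave. ptc-MIR390b-p3 and ptc-miR390d-3p differ by 1 base (C20T, counted from 1 at the 5′ end of ptc-MIR390b-p3). ptc-MIR393c-p3 pairs with ptc-miR393a-5p at 15 Watson-Crick and 1 G:T position of 19, again with overhangs of 2 nt. ptc-MIR393a-p3 gave another picture, with 12 pairs over only 13 facing bases and 3′ overhangs of 7 nt on the 3p strand and 8 nt on the 5p strand. gma-MIR393c-p3, named after soybean, shares 19 bases with it. Pairings with bulges and the hairpins themselves were not analysed here.

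The most abundant miR390 sequence was lower with each step of the dose. A 3p strand that shares its hairpin name, ptc-MIR390a-p3, was lower than in PHBA 0 beyond counting error only in PHBA 2. ptc-miR390a had 1317 (PHBA 0), 953 (PHBA 2) and 449 (PHBA 4) normalized reads, which are the deposited counts times 1 constant per library. Among the 472 sequences it had rank 36 without acid, rank 52 at the lower dose and rank 90 at the higher dose. Its level was 1.38-fold lower in PHBA 2 than in PHBA 0 (1.27 to 1.50) and 2.12-fold lower in PHBA 4 than in PHBA 2 (1.85 to 2.43). The step between the doses depends on the scaling, with a log2 fold change of -1.08 as deposited and -0.79 when libraries are set to equal totals, which is under 2-fold. Against PHBA 0 it was 2.93-fold lower in PHBA 4 (2.60 to 3.31). The size of this difference depends on the scaling too, with a log2 fold change of -1.55 as deposited and -1.23 with equal totals.

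The more abundant 3p strands of miR390 did not show this drop at the higher dose. ptc-MIR390a-p3, whose sequence is also listed as ptc-MIR390c-p3, had 150 (PHBA 0), 105 (PHBA 2) and 116 (PHBA 4) normalized reads. Its ratio of PHBA 4 to PHBA 0 was 0.777, with an interval that holds 1 (0.602 to 1.01), while in PHBA 2 it was 1.43-fold lower than in PHBA 0 (1.11 to 1.85). ptc-MIR390b-p3 was highest with acid, at 16.9, 32.3 and 25.5 normalized reads over the rising doses. It was 1.91-fold higher in PHBA 2 than in PHBA 0 (1.09 to 3.29), but this rests on 25 reads in PHBA 2 and 34 in PHBA 0. The rare ptc-miR390d-3p had 5.98 and 6.47 normalized reads in PHBA 0 and PHBA 2 and was listed at 0 in PHBA 4. Summed normalized reads of all 3p strands were 142 in PHBA 4, against 172 in PHBA 0, a ratio of 0.822 (0.651 to 1.04).

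The miR393 5p strand, the form that acts on the auxin receptors, was less variable and did not fall at the lower dose. ptc-miR393a-5p_R+1, of 22 nt, had 809 (PHBA 0), 1005 (PHBA 2) and 635 (PHBA 4) normalized reads. It was 1.24-fold higher in PHBA 2 than in PHBA 0 (1.14 to 1.35) and 1.27-fold lower in PHBA 4 than in PHBA 0 (1.15 to 1.42). The difference in PHBA 4 depends on the scaling, with a log2 fold change of -0.35 as deposited and -0.026 with equal totals. The 21 nt form, ptc-miR393a-5p, had 278, 295 and 226 normalized reads in the same order of doses. Its ratio of PHBA 2 to PHBA 0 was 1.06 (0.904 to 1.24). Its ratio of PHBA 4 to PHBA 0 was 0.814 (0.676 to 0.976), and with equal totals the sign of this difference flips, at a log2 fold change of 0.027.

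**Figure D1:**
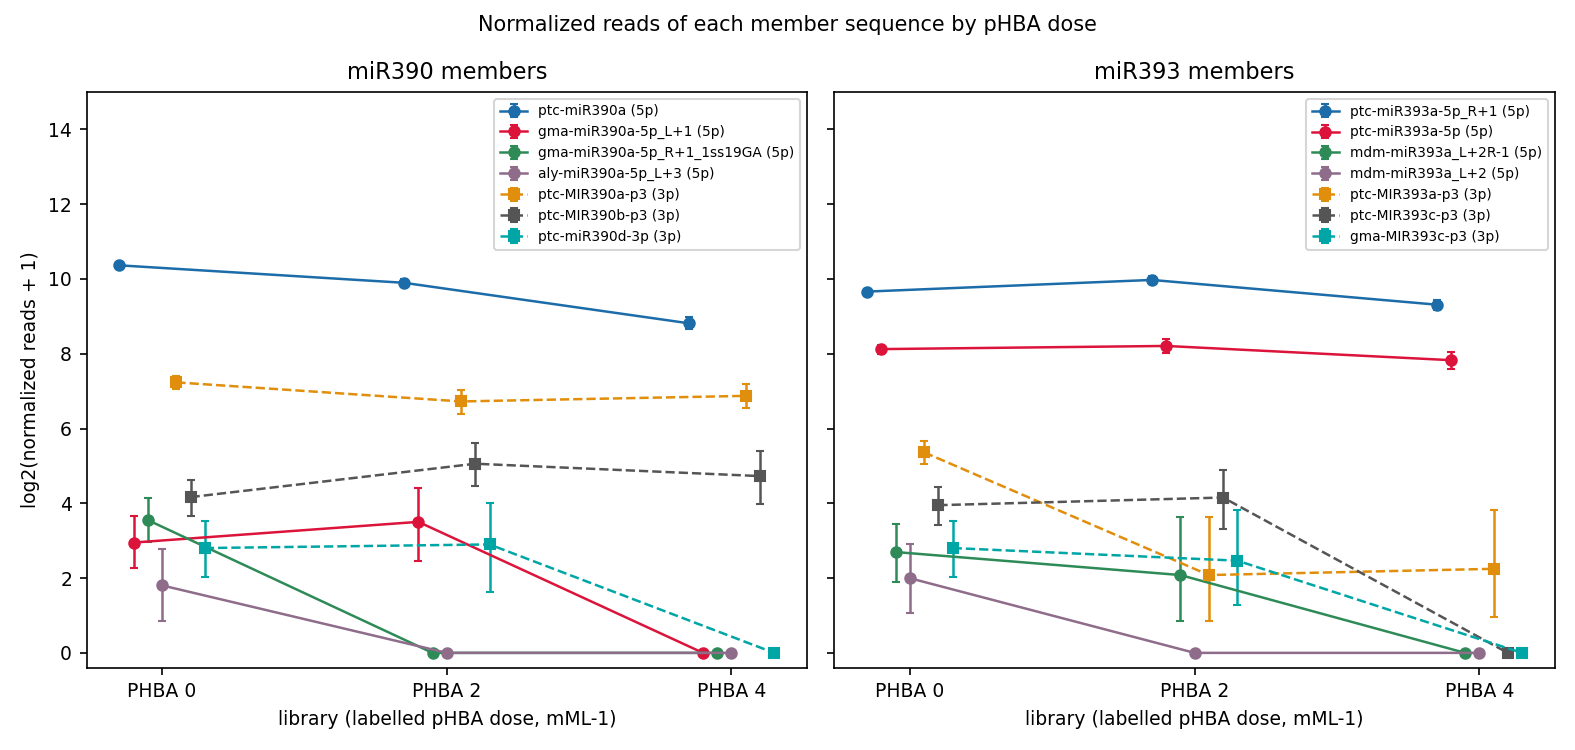
Levels of the 14 member sequences in the 3 libraries, as log2 of normalized reads plus 1, with miR390 on the left and miR393 on the right. Circles with full lines are 5p strands, squares with dashed lines are 3p strands, bars are exact Poisson 95% intervals, and values listed at 0 have no bar. ptc-miR390a descends over the doses to 449 normalized reads in PHBA 4, while both ptc-miR393a-5p forms stay within a narrow range.

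The 3p strands of miR393 were lower with acid in sum, though not each of them at both doses. ptc-MIR393a-p3, also listed as ptc-MIR393b-p3, had 40.1 (PHBA 0), 3.23 (PHBA 2) and 3.75 (PHBA 4) normalized reads. These values rest on 80.5, 2.5 and 2.5 reads, and fractions appear to come from reads divided between entries. At the normalized level of PHBA 0 there would have been 31.0 reads in PHBA 2 and 26.8 in PHBA 4. The sequence was 10.7-fold lower in PHBA 4 than in PHBA 0 (2.96 to 44.4). ptc-MIR393c-p3, the strand with the usual overhangs, behaved differently at the lower dose. Its normalized reads were 14.5 without acid and 16.8 at the lower dose, and it was listed at 0 at the higher dose. Its 29 reads in PHBA 0 correspond to 9.64 reads in PHBA 4 at an equal normalized level. No fold is given against 0, since the table may leave out low values. In sum the miR393 3p strands were 2.47-fold lower in PHBA 2 than in PHBA 0 (1.52 to 4.25).

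The remaining 7 members were rare, with means of 0.831 to 5.69 normalized reads over the libraries. They are ptc-miR390d-3p, gma-MIR393c-p3 and 5 variants of the 5p strands with other ends or a substitution, named after soybean (gma), apple (mdm) and Arabidopsis lyrata (aly). gma-miR390a-5p_R+1_1ss19GA, which differs from ptc-miR390a by G19A (counted from the 5′ end) and 1 base more at its 3′ end, had 10.7 normalized reads without acid and was listed at 0 at both doses. gma-miR390a-5p_L+1 had 6.73 in PHBA 0 and 10.3 in PHBA 2. All 7 were listed at 0 in PHBA 4, as was ptc-MIR393c-p3. All 14 members were above 0 in PHBA 0, 11 in PHBA 2 and 6 in PHBA 4, and of all 472 sequences 421, 365 and 349 were. The libraries held 1434442 (PHBA 0), 542913 (PHBA 2) and 380800 (PHBA 4) reads on listed sequences, so low members were least likely to be seen in PHBA 4. At the PHBA 0 level these 7 would have had between 1.66 and 7.15 reads there, and their loss was not tested apart from depth. aly-miR390a-5p_L+3 and mdm-miR393a_L+2 each share their values in all libraries with other sequences of the table, as low counts beside 0 can.

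Across the table, 289 sequences averaged 10 or more normalized reads over the 3 libraries and were compared, and 7 of them are members. A difference was called at 2-fold on the log2 scale after adding a pseudocount of 1. In PHBA 4 against PHBA 0, 3 of the 7 were lower, ptc-miR390a, ptc-MIR393a-p3 and ptc-MIR393c-p3, where 21.1% of all compared sequences were lower. No member was higher, where 23.9% of all were. In PHBA 2 against PHBA 0, ptc-MIR393a-p3 alone was lower (9.69% of all) and none was higher (16.3% of all). In PHBA 4 against PHBA 2, ptc-miR390a and ptc-MIR393c-p3 were lower (16.3% of all) and none was higher (17.3% of all). The calls of ptc-MIR393c-p3 are set against a listed 0 in PHBA 4 and rest on the pseudocount, and low values may have been left out. The median log2 fold change of the 7 was 0.08, -0.36 and -0.38 in PHBA 2 over PHBA 0, PHBA 4 over PHBA 0 and PHBA 4 over PHBA 2, beside -0.03, 0.01 and 0.03 for all. With so few members these shares say little, and ptc-MIR393a-p3 and ptc-MIR393c-p3 passed the minimum (means of 15.7 and 10.4) through the libraries where they are high. With equal totals log2 fold changes against PHBA 0 move up by 0.32 in PHBA 4 and by 0.03 in PHBA 2. The split of all calls in PHBA 4 against PHBA 0 is then 86 higher and 44 lower, against 69 and 61 as deposited, and in PHBA 4 against PHBA 2 it is 71 and 30, against 50 and 47.

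**Figure D2:**
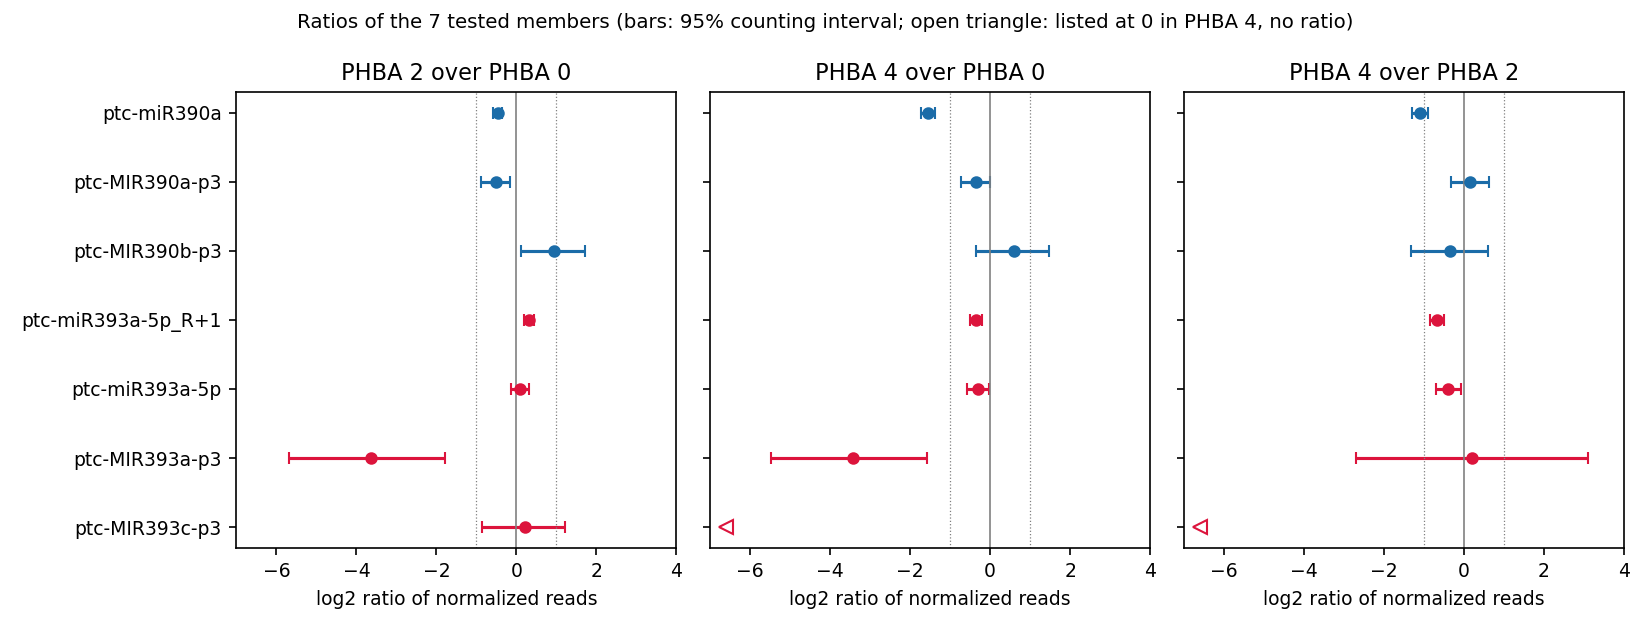
Log2 ratios of normalized reads for the 7 members with a mean of at least 10, in the 3 comparisons, with 95% counting intervals and dotted lines at 2-fold. miR390 is in blue and miR393 in red, and an open triangle marks ptc-MIR393c-p3, listed at 0 in PHBA 4. The wide bars of ptc-MIR393a-p3 reflect its 2.5 reads in each of PHBA 2 and PHBA 4.

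The balance of the strands within a library does not depend on the scaling between libraries. Between PHBA 0 and PHBA 4, the summed shares moved in opposite directions in the 2 families. By Wilson intervals, the 3p strand held 11.4% of miR390 reads without acid (10.3 to 12.6), 13.0% at the lower dose (10.9 to 15.4) and 24.1% at the higher dose (20.2 to 28.6). The interval of PHBA 4 lies above the other two, which overlap. For miR393 the 3p strand held 5.26% of reads without acid (4.42 to 6.24), 1.85% at the lower dose (1.19 to 2.87) and 0.520% at the higher dose (0.177 to 1.52). The intervals of both doses lie below that of PHBA 0 and overlap each other. The share in PHBA 4 rests on 2.5 reads of ptc-MIR393a-p3, as ptc-MIR393c-p3 and gma-MIR393c-p3 were listed at 0 there. Low values may have been left out, most of all in PHBA 4 with the fewest reads. The intervals take a listed 0 as a true 0, and the lower share was not tested apart from depth. The lower miR393 share in PHBA 2 rests mostly on ptc-MIR393a-p3, with 80.5 reads in PHBA 0 and 2.5 in PHBA 2. That sequence faces the 5p strand over only 13 bases. ptc-MIR393c-p3, the strand with the usual overhangs, was not lower in PHBA 2, at 16.8 normalized reads against 14.5 in PHBA 0. The sizes depend on the counting, and the order of some steps does too. With every entry counted, the miR390 shares were 5.72%, 6.09% and 12.6% over the rising doses, since ptc-miR390a has 4 entries. From the most abundant sequence of each strand alone they were 10.2%, 9.90% and 20.7%, so the small step to PHBA 2 turns. The miR393 shares were 7.18%, 1.98% and 0.685% with every entry counted. From the most abundant sequence of each strand they were 4.75%, 0.385% and 0.704%, so the order of the 2 doses turns. In each of these countings the miR390 share was higher, and the miR393 share lower, in PHBA 4 than in PHBA 0.

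The length of the miR393 5p strand differed little between the libraries. The 22 nt form made up 74.5% of the 21 and 22 nt forms without acid (72.6 to 76.2), 77.3% at the lower dose (74.6 to 79.8) and 73.7% at the higher dose (69.9 to 77.1), and these intervals overlap. In plants, miRNAs of 22 nt are known to be able to start secondary siRNAs from their targets, and Arabidopsis miR393 does so on its receptor transcripts. With every entry counted the share was lower in all libraries, at 59.3%, 63.0% and 58.3% over the rising doses.

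**Figure D3:**
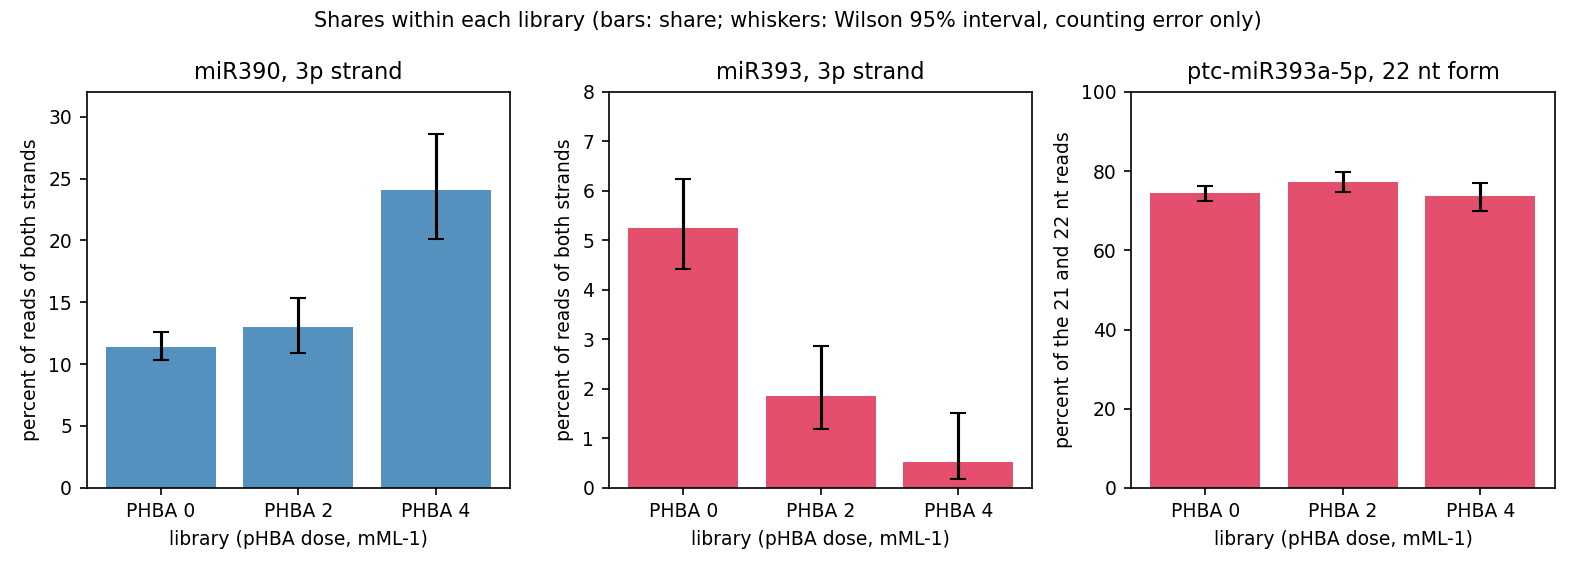
Shares of reads within each library, with Wilson 95% intervals, for the 3p strand of miR390, the 3p strand of miR393 and the 22 nt form of ptc-miR393a-5p, each axis starting at 0 with its own range. The miR390 3p share is highest in PHBA 4 at 24.1%, the miR393 3p share is highest in PHBA 0 at 5.26%, and the 22 nt share lies between 73.7% and 77.3%.

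These strands were then placed among the other hairpins of the table. A hairpin was used when both its strands carried the same P. trichocarpa name and each averaged 10 or more normalized reads, which left 54. Strands that share a name need not come from that hairpin alone. ptc-miR390a has 4 entries and also pairs with ptc-MIR390b-p3, so its reads may come from several hairpins. For MIR393a the strands used were ptc-miR393a-5p_R+1 and ptc-MIR393a-p3. These face each other over only 13 bases, with 3′ overhangs of 9 nt and 7 nt, so they were matched by name and not as a usual duplex. In PHBA 4 against PHBA 0 the log2 fold change of the less abundant strand minus that of the more abundant one was 1.19 for MIR390a and -2.76 for MIR393a, and the median was -0.32. There were 10 hairpins at 1 or above, of which MIR390a was the lowest, and 17 at -1 or below, among which MIR393a had rank 3 from the lowest. In PHBA 2 against PHBA 0 the difference was -0.04 for MIR390a and -3.59 for MIR393a, the lowest of the 54, and the median was -0.09. Less abundant strands had a median log2 fold change of -0.45 in PHBA 4 against PHBA 0, and more abundant ones -0.02. Both medians are as deposited, and equal totals would move such values up by about 0.32. Low counts move more by counting error alone, and the MIR393a values carry the 2.5 reads given above. MIR393a also entered the 54 only through ptc-MIR393a-p3 in PHBA 0, so its ranks are a description and support nothing.

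**Figure D4:**
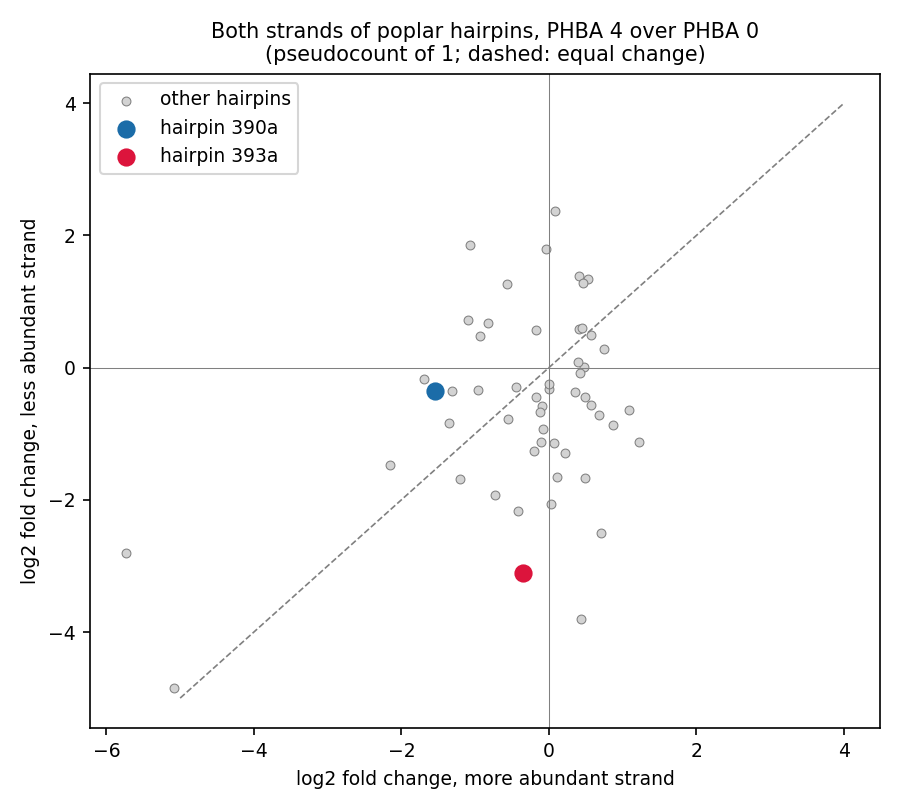
Log2 fold change of the less abundant strand against that of the more abundant strand for 54 poplar hairpins, PHBA 4 over PHBA 0, with a pseudocount of 1. Strands were matched by name, and the dashed line marks equal change. The MIR390a hairpin lies above the line, with 1.19 more on the less abundant strand, and the MIR393a hairpin lies below it at -2.76.

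The share of miR393 in the reads of both families was higher with acid. Each sequence counted once, miR390 held 0.211% (PHBA 0), 0.158% (PHBA 2) and 0.103% (PHBA 4) of listed reads, and miR393 held 0.162%, 0.189% and 0.152%. Of the reads of both families together, miR393 made up 43.4% without acid (42.1 to 44.7), 54.6% at the lower dose (52.3 to 56.8) and 59.4% at the higher dose (56.3 to 62.5). Which family had more reads depends on the counting of entries. With every entry counted, an alternative chosen after seeing the data, miR393 made up 20.9%, 28.6% and 34.8% over the rising doses, so miR390 had more reads in all 3 libraries. The miR393 sum was 1.15-fold higher in PHBA 2 than in PHBA 0 (1.07 to 1.24), where the miR390 sum was 1.36-fold lower (1.26 to 1.47). Between the doses, PHBA 4 was 1.53-fold lower than PHBA 2 for miR393 (1.38 to 1.70) and 1.87-fold lower for miR390 (1.66 to 2.12). Reads on miR6300, miR5368 and miR6478, annotations doubted as fragments of other RNAs, took 0.676%, 2.08% and 3.97% of reads over the rising doses. With equal totals over all other sequences the log2 ratio of the miR390 sum in PHBA 4 over PHBA 0 was -0.98, and with equal totals over all sequences it was -1.03. For the miR393 sum the values were -0.046 and -0.095.

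Other miRNAs of auxin signalling in the table include miR160, which represses ARF10, ARF16 and ARF17, and miR167, which represses ARF6 and ARF8. Only these were compared here. The miR160 sum was 2526 (PHBA 0), 2115 (PHBA 2) and 2726 (PHBA 4) normalized reads, and the miR167 sum 3771, 2947 and 3855. Neither sum showed the lower level of miR390 at the higher dose, with a ratio of PHBA 4 to PHBA 0 of 1.08 for miR160 (1.02 to 1.14) and 1.02 for miR167 (0.977 to 1.07). Of their 17 compared sequences, the calls in PHBA 4 against PHBA 0 were 5 lower and 1 higher, beside 21.1% lower and 23.9% higher of all compared sequences. The median log2 fold change was -0.71, beside 0.01 for all. In PHBA 2 against PHBA 0, 2 were lower and 0 higher, beside 9.69% and 16.3% of all, and the median was -0.37, beside -0.03. In PHBA 4 against PHBA 2, 2 were lower and 2 higher, beside 16.3% and 17.3% of all, and the median was -0.28, beside 0.03. Of their most abundant sequences, ptc-miR160a had 2395 normalized reads in PHBA 4 against 1495 in PHBA 0, a ratio of 1.60 (1.51 to 1.70). Its log2 fold change was 0.68 as deposited and 1.00 with equal totals, where it reaches the 2-fold call. ptc-miR167e had 1757 in PHBA 4 against 1879 in PHBA 0, a ratio of 0.935 (0.875 to 0.999), whose sign flips with equal totals, at a log2 fold change of 0.23.

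Sequences of other families most like the leading members were sought among the 139 with a mean of at least 100, by the distance between their pairs of log2 fold changes against PHBA 0. The 3 nearest to ptc-miR390a were ptc-miR168a-3p (distance 0.13), ptc-MIR159a-p5_1ss21AT (0.14) and ptc-miR160e-3p (0.19). ptc-miR168a-3p, a strand of the hairpin that yields the AGO1 regulator, had 964 (PHBA 0), 747 (PHBA 2) and 346 (PHBA 4) normalized reads. The 3 nearest to ptc-miR393a-5p_R+1 were ptc-MIR1446d-p3 (0.045), ptc-MIR472b-p5 (0.084) and ptc-miR482c-3p (0.14). ptc-miR482c-3p, a regulator of NBS-LRR resistance genes, had 12288, 16730 and 9858 normalized reads over the same doses. With 2 fold changes for each sequence, such closeness is a description of these 3 libraries.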

How the data were processed

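Small RNA libraries were made from total root RNA, pooled per dose, per the labels' protocols, with 1 library for each of the 3 doses. The submitters' processing notes name bcl2fastq 1.8.4. The sources used here give no aligner, counter, miRNA release or build. The authors deposited an expected count per entry and library, which need not be whole, and a normalized signal. The deposited signal is the count times 0.498 in PHBA 0, 1.29 in PHBA 2 and 1.50 in PHBA 4, by a rule that these sources do not give, with no length term. Entries of the same sequence carry the same value, so each sequence was counted once. If that value is a part of reads divided between entries, levels, ranks and family shares of sequences with several entries are understated, for ptc-miR390a by up to its number of entries, 4.

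Strands were taken from names or, for names without one, from the strand of a member that holds the same core. Fold changes have exact conditional binomial (Clopper-Pearson) intervals and shares Wilson intervals, at 95%, from counts rounded to whole reads. The values give no molecular identifiers, so reads may repeat a molecule. Folds in the text have no pseudocount, and log2 fold changes have a pseudocount of 1, which understates differences of low values. The 2-fold calls and intervals were tried on simulated Poisson counts with planted changes larger than 2-fold. The intervals assume such counts, and no variation between plants or libraries was simulated, so the trial says nothing about that variation. Alternatives were equal totals, median-of-ratios factors, minimums of 0 and 100, a pseudocount of 5, every entry counted, ptc names only and the most abundant sequence of each strand. Every member is accounted for, miR160 and miR167 are described by counts, medians and their leading sequence, and likeness names the 3 nearest sequences. Members and lists were chosen with earlier results of these data known. Python 3.11.15, numpy 2.4.6, pandas 2.3.3 and scipy 1.17.1 were used.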

Additional observations from a re-analysis of the deposited data

How the results depend on the processing

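No paired analysis was possible because each dose has 1 library. No value that was called changed direction. With equal totals the log2 ratio of the miR390 sum was -1.03 in PHBA 4 over PHBA 0 and -0.61 in PHBA 4 over PHBA 2, and that of the miR393 sum was -0.095 and -0.32. With equal totals after leaving out miR6300, miR5368 and miR6478, an alternative chosen after seeing the data, as was every entry counted for shares, these were -0.98, -0.58, -0.046 and -0.29. As deposited they were -1.35, -0.90, -0.42 and -0.62. Median-of-ratios factors, ptc names alone and every entry counted left all 6 family sums within their counting intervals. Sequences called at least 2-fold in PHBA 2 over PHBA 0, PHBA 4 over PHBA 0 and PHBA 4 over PHBA 2 numbered 75, 130 and 97. They numbered 191, 274 and 208 with no minimum, where more sequences were compared, and 31, 53 and 26 at a mean of at least 100, where fewer were. With every entry counted there were 203 in PHBA 4 over PHBA 0.

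From the most abundant sequence of each strand alone, the 3p share for miR390 was 9.90% in PHBA 2, against 10.2% in PHBA 0, and for miR393 it was 0.385% in PHBA 2. With every entry counted the 3p share of miR390 was 5.72%, 6.09% and 12.6% over the rising doses, that of miR393 was 7.18% in PHBA 0, the 22 nt share was 59.3%, 63.0% and 58.3%, and miR393 made up 20.9%, 28.6% and 34.8% of both families. Here the weights of the sequences differ by construction, and no other cause was tested. Depth limits the rare members most, since PHBA 4 has the fewest reads.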
